A study of Mus musculus with 4 samples.

Results

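Of 50600 genes in the deposited tables, 4957 lay only in introns of genes on the other strand. A gene was taken as a member when its exons overlapped the body of an opposite-strand gene, here called its host, without sharing a base with any opposite-strand exon, and when it was not on chromosome X, Y or M. The rule uses gene positions and no counts, but it and the host lists below were chosen with earlier results of these data known. The exons of 3797 members lay whole inside 1 intron, 233 lay inside the host but in more than 1 intron, and 927 reached beyond the host's ends. The members had 3647 hosts, of which 2643 were protein-coding, and 4827 members had a single host. By GENCODE gene type, 1526 members were long noncoding, 1242 were processed pseudogenes, 1048 were protein-coding and 973 were small noncoding genes.

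Introns are transcribed with the rest of their gene and are spliced out of the nuclear RNA before export. Other genes can lie inside them, and those on the other strand are read in the opposite direction to the host. Processed pseudogenes are copies of spliced messenger RNA that were reverse transcribed and inserted elsewhere in the genome, often into introns. A stranded library assigns a read to 1 of both strands, so a count on such a member depends on which strand of the read was taken as the strand of the gene.

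The 4 libraries were total RNA-seq of T-helper 2 cells, helper lymphocytes known for interleukin 4 and allergic responses, from mice of strain C57BL/6NJ. They form 1 group with no control, and sex, age and developmental stage are not given. In the labels they carry separate biological replicate numbers but a single donor identifier, so the spread between them may be partly technical. Comparisons are therefore within libraries or between replicates 1 to 4. Totals ran from 1688658 to 2222583 counts, at which a count of 0 allows up to 3 counts, or a CPM, the count scaled by its library total, of 1.35 to 1.78, for counting error only. All 9 of the T cell identity markers had counts, with sums of 197 to 351 a library. Of 7 Th2 markers 4 had counts, and Il5, Il13 and Il1rl1 were at 0 in every library. Single markers of B cells (Cd79a, 1 of 3), macrophages (Csf1r, 1 of 3) and CD8 T cells (Cd8b1, 1 of 2) had counts, and Csf1r, a gene with an exon on the other strand, had 922, 916, 973 and 1018, more than the 9 T cell markers together in every library. In contrast, Ms4a1, Adgre1, Lyz2 and Cd8a were at 0. The part of other cells in the values below was not tested.

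Genes that share exon bases with a gene on the other strand held 89.2% ± 1.49 (SD, n = 4) of all counts, and the members held 1.08% ± 0.114. The file headers record counting with strand option 1, under which a fragment is given to the gene on the strand of its first read. If the first reads of these libraries run opposite to their RNA, this setting gives each fragment to the wrong strand. The large share of genes with an opposite exon, and the low counts of B2m given below, put the setting in doubt. Protein-coding genes that overlap no other gene had a mean of 1.10 CPM per kb of exon. Among genes with an opposite exon, long noncoding ones had 71.5 and protein-coding ones 17.9. Whether the setting is wrong was not tested. Every count of a member below is therefore a count on the member's strand under this setting. Whether it came from the member's own RNA or from the intron of its host cannot be told apart. Where a fragment overlaps 1 exon base it can be counted, so density, given below as CPM per kb of exon, is inflated for short entries.

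The sequences of 6 single-exon members, chosen after their values were seen, are examples of the noncoding and pseudogene entries named below. Each is a stretch of 120 bases of the GENCODE M21 transcript, on mm10 and on the strand of the member. Capitals mark the hexamers AATAAA and TTTATT in Gm43980, Gm37520 and Gm17137, and the opening ATG in the pseudogenes Gm13204 and Gm17825. For Gm43980, Gm37520 and Gm17137 the stretch was picked as the one with the most of these hexamers in the transcript, so it is not typical. AATAAA is the usual polyadenylation signal when it is in the RNA, and TTTATT is the same signal read from the other strand. The stretch of Gm37856 is its first 120 bases and has no capitals because the transcript window searched held neither hexamer.
Gm43980, in intron 1 of Tra2a, chr6:49254999-49255118, plus strand: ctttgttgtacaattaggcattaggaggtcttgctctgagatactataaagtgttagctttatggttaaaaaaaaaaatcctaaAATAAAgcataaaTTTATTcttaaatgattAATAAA
Gm37520, in an intron of Prkcq, chr2:11192835-11192954, minus strand: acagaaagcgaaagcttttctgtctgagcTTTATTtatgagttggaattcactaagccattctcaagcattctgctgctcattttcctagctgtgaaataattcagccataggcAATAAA
Gm37856, in intron 1 of Cd247, chr1:165845966-165846085, minus strand: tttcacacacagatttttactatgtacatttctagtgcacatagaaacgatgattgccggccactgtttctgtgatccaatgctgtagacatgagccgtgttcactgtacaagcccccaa
Gm17137, in intron 5 of Xpo6, chr7:126165377-126165496, plus strand: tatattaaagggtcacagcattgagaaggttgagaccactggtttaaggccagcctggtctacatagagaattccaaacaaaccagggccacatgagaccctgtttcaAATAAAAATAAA
Gm13204, in intron 14 of Exosc10, chr4:148569757-148569876, minus strand: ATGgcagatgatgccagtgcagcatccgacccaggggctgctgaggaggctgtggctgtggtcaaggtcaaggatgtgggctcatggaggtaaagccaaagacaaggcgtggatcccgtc
Gm17825, in intron 11 of Immt, chr6:71869886-71870005, minus strand: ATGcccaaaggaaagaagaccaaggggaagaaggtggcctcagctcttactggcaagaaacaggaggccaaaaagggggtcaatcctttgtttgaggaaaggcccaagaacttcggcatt

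In the first 300 bases of 1380 single-exon members inside 1 intron, AATAAA was found in 10.5% and TTTATT in 8.91%. In 8543 other single-exon genes the shares were 11.4% and 12.8%, but these sets differ in their mix of gene types. For pseudogenes alone AATAAA was found in 7.24% of members and 8.89% of others, and TTTATT in 5.04% and 5.43%. For long noncoding genes the shares were 21.8% and 17.6% for AATAAA and 21.2% and 23.8% for TTTATT. Among the members, AATAAA was found in 10.4% of the 550 with a count and in 10.6% of the 830 at 0, and mean GC content was 47.9% and 47.1%. A match is a run of letters and not a site in use. Only the first 300 bases were searched, so the shares say nothing of the rest of a longer entry.

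The densest long noncoding member was Gm43980, a single-exon entry of 1612 bases that GENCODE marks as still to be experimentally checked. It had 592, 509, 824 and 769 counts in replicates 1 to 4, a density of 222 ± 28.5 (SD, n = 4). Its host Tra2a, a splicing regulator, had 34, 27, 16 and 31 counts over its own exons. Under the strand setting recorded, Gm43980 had more counts than its host in every library; under the opposite setting those counts would be of RNA from the strand of Tra2a. In Ikzf1, a transcription factor gene of lymphocytes, Gm12000 had 68, 87, 123 and 87 counts, while Ikzf1 itself had 36, 53, 27 and 68. Among the 8 densest long noncoding members were also Gm15777 in Coq2, 1700058P15Rik in Vasp, Gm16091 in Tpm4, Gm17112 across Epo and Gnb2, and Gm44941 in Snrpg. Of these, Gm15777, Gm16091 and Gm17112 reach beyond their hosts.

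The densest processed pseudogene was Gm13204 in Exosc10, a gene for a catalytic subunit of the RNA exosome, with 168, 120, 127 and 170 counts and a density of 96.6 ± 23.3 (SD, n = 4). Gm12276, in intron 41 of the corepressor gene Ncor1, had 48, 26, 59 and 39 counts. Gm17825, in Immt, a gene of the mitochondrial inner membrane, had 110, 44, 83 and 111 counts, so replicate 2 was the lowest. Ccnb2-ps, in Zfp617, had 144, 145, 176 and 129 counts. Counts in every library were a condition for naming these 4, and 153 of 1242 processed pseudogenes had them. None of the 4 passed the test of variation described below. Reads of a pseudogene can also align to its parent gene or to other copies, so their levels are uncertain.

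The densest protein-coding member was Adad1, a gene of an RNA-binding protein known from the testis, whose exons reach beyond its host Il2. Adad1 had 658, 598, 883 and 863 counts, and Il2, the gene of a T cell growth factor, had 30, 25, 12 and 15. H2-T24, a class I-like gene, lies in the intron of the antisense gene A930015D03Rik, and had 265, 200, 392 and 303 counts. Kcna3, a voltage-gated potassium channel of T cells, had 155, 147, 180 and 240 counts in an intron of Gm27008. B2m, the light chain of class I molecules and a gene that nearly every cell expresses, lies in an intron of Patl2 and had 56, 80, 27 and 68 counts. Such low counts are among the values that put the strand setting in doubt, and they cannot be read as the level of B2m expression. Amigo3 in Rnf123, Scx in Bop1, C8g in Fbxw5 and Clic3 in Paxx were the remaining genes among the 8 densest. Of these, C8g reaches beyond its host.

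The host with the most members was Gm20388, an entry whose first intron spans 4384418 bases. It had 97 members, of which 20 had a count, with 1227 counts in all, and Gm20388 itself was at 0. Its members included Dbndd1 with 58, 68, 108 and 79 counts and Mvd, an enzyme of cholesterol synthesis, with 48, 28, 24 and 37 counts. Among the hosts with the most member counts were also Mpp6, overlapped by Gsdme with 354, 410, 587 and 444 counts, and Pclaf, overlapped by Trip4 with 282, 245, 312 and 356. Both members reach beyond their hosts, and Trip4 spans the whole of Pclaf. Prr33 had 317, 247, 252 and 298 counts and is a member of both Lsp1 and Tnnt3.

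The order of the 3 main gene types by density was not stable. Counts were found on 36.4% of long noncoding members, 41.5% of processed pseudogenes and 57.6% of protein-coding members. The pooled density was 1.64 ± 0.316 for long noncoding members, 1.53 ± 0.257 for processed pseudogenes and 1.31 ± 0.129 for protein-coding members (SD, n = 4). Long noncoding members were 1.07 times as dense as pseudogenes, and protein-coding members 0.864 times. Long noncoding members were 1.24 times as dense as protein-coding ones (mean log2 ratio 0.31), with a log2 ratio of 0.74 in replicate 3 and of 0.13 to 0.21 in the others. By exact sign-flip tests over the libraries (two-sided) p was 0.13, 0.25 and 0.13, and 0.1875, 0.25 and 0.1875 after adjustment over 3 pairs. A p of 0.13 is the smallest that the 16 sign patterns of 4 libraries allow, so no such comparison here can pass 0.05. The order of the types also changed with the measure: as the mean of log2(TPM + 1), protein-coding members were above pseudogenes by 0.14. Among members with a mean count of 1 or more, the log2 ratio of long noncoding over protein-coding was 1.19 and that of protein-coding over pseudogenes was -1.25. Small noncoding members, with a median length of 110 bases, had a density of 4.38 ± 0.740 and a count on 32.2%.

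The comparison with other genes of the same type asks whether an opposite-strand intron is a particular setting. Long noncoding members were 24.4 times as dense as long noncoding genes lying in introns of their own strand, at 1.64 against 0.0668 ± 0.00856 (SD, n = 4). For processed pseudogenes the ratio was 23.3, at 1.53 against 0.0671 ± 0.0190. For protein-coding genes it was 1.83, at 1.31 against 0.723 ± 0.146. Against genes that overlap no other gene, the ratios were 5.66, 10.7 and 1.21. All 6 ratios were above 1 in 4 of 4 libraries, with an exact p of 0.13 each. Genes with an exon opposite another exon were denser still, so that the members' density was 0.0227, 0.111 and 0.0729 times theirs for the 3 types. Among genes with a mean count of 1 or more, the log2 ratios to same-strand introns were 1.33 for long noncoding genes and 1.71 for pseudogenes, in place of 4.61 and 4.54, and those to genes that overlap no other were 0.77 and 0.24, in place of 2.50 and 3.41.

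**Figure D1:**
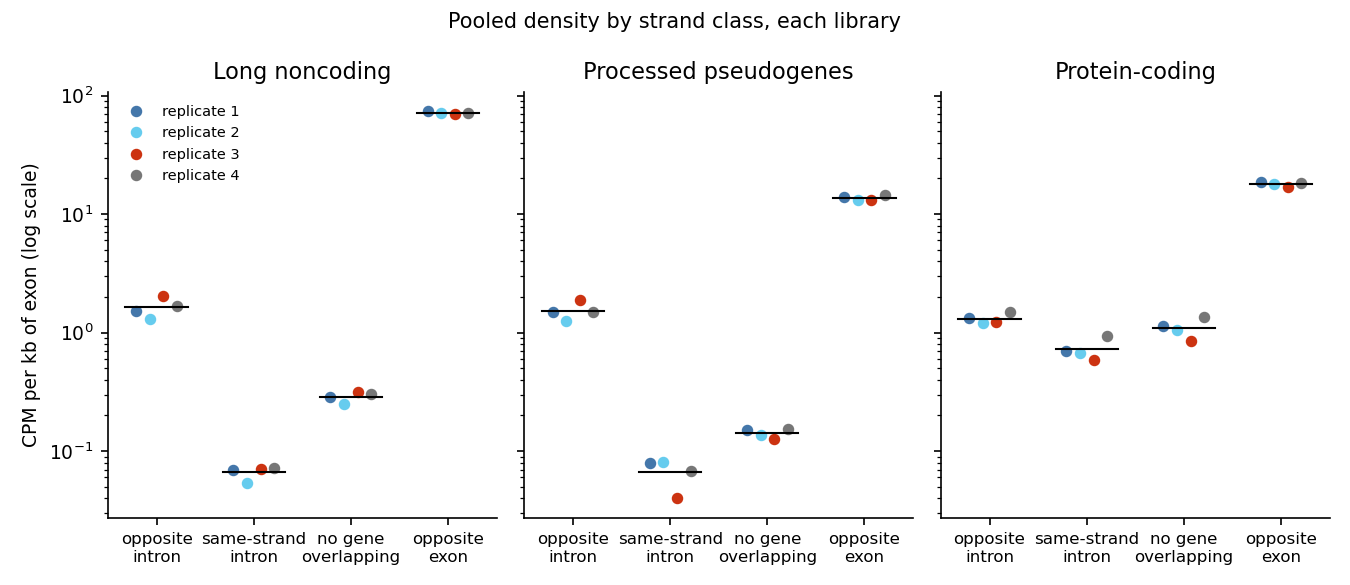
Density of genes by their strand setting, in CPM per kb of exon on a log axis, for 3 gene types; each point is a library and each bar the mean of 4. Genes in opposite-strand introns lie above those in same-strand introns in every library and below those with an opposite exon.

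Member density differed with the kind of host. T cell, broadly expressed and neuronal hosts were taken from lists of 82, 98 and 92 genes. In T cell hosts, 36 of 43 members had a count and the density was 8.48 ± 2.89. In broadly expressed hosts, 57 of 71 had a count and the density was 2.39 ± 1.20. In neuronal hosts, only 6 of 161 had a count, with 40 counts in all and a density of 0.0327 ± 0.0154 (SD, n = 4 for each). Members in T cell hosts were 286 times as dense as those in neuronal hosts and 3.70 times as dense as those in broadly expressed hosts, in 4 of 4 libraries (exact p = 0.13 each, two-sided). The first ratio rests on 13, 10, 4 and 13 counts in neuronal hosts. Its mean log2 was 8.16, 7.47 without replicate 3, and 4.76 among members with a mean count of 1 or more. The hosts also differ in size, and median intron length was 36603 bases for T cell, 34642 for broadly expressed and 150878 for neuronal hosts.

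**Figure D2:**
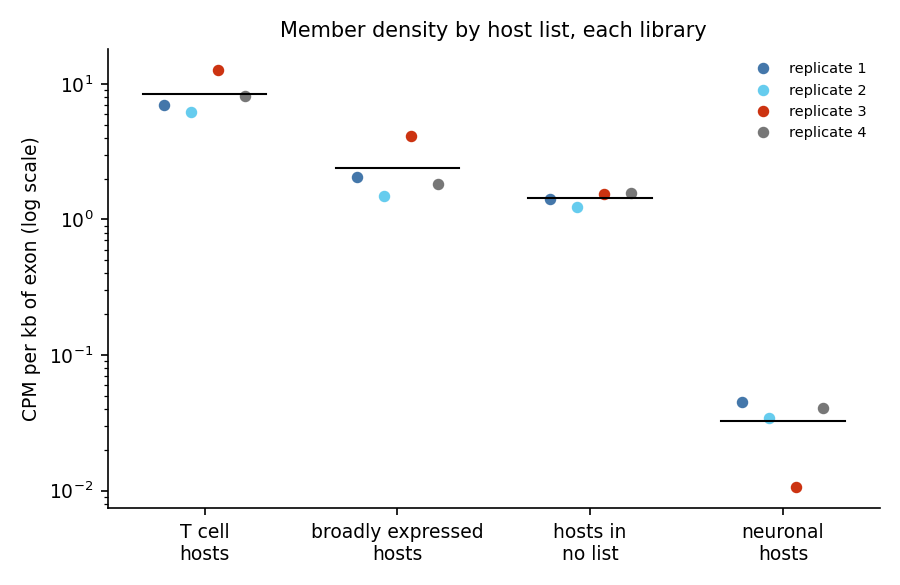
Density of members by the list their host belongs to, in CPM per kb of exon on a log axis, with a point for each library and a bar for the mean. Members in T cell hosts are the highest and those in neuronal hosts the lowest in all 4 libraries, and replicate 3 is the highest library for T cell and broadly expressed hosts and the lowest for neuronal hosts.

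In Cd247, which encodes the zeta signalling chain of that receptor on T cells, 4 noncoding members lay in the same intron. Gm37469 had 31, 19, 61 and 55 counts, Gm37856 had 27, 18, 68 and 47, and Gm32999 had 27, 19, 49 and 40. These 3 had their lowest count in replicate 2 and their highest in replicate 3, the library with the largest total. The fourth, the small nuclear RNA gene Gm23402, had 3, 0, 6 and 2 counts. Cd247 itself had 1023, 1026, 1261 and 1217 counts. In Fyn, a Src-family kinase of T cell signalling, Gm16364 had 76, 58, 97 and 77 counts, and the pseudogene Gm6963 had 1, 1, 13 and 0. Gm16365, which reaches beyond Fyn, had 40, 23, 55 and 40 counts. In Zap70, a kinase recruited by the receptor, the pseudogene Gm18828 had 60, 44, 77 and 68 counts.

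Among broadly expressed hosts, Zmynd8 held BC046401 with 15, 10, 36 and 17 counts and Gm11465 with 20, 14, 37 and 14, and Rbm5, a splicing factor gene, held Gm37850 with 23, 12, 45 and 23. In neuronal hosts most of the counts came from protein-coding members. Cstf2t, a cleavage stimulation factor gene in the kinase gene Prkg1, had 9, 4, 3 and 9 counts. Dcp1b, a decapping factor gene that overlaps the calcium channel gene Cacna1c and reaches beyond it, had 2, 2, 0 and 4 counts. Trim32, a ubiquitin ligase gene in Astn2, had 1, 3, 0 and 0. None of the 35 small noncoding members in neuronal hosts had a count.

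Across hosts, member density went with the counts of other genes opposite the same host's exons. Over 643 hosts, Spearman's rho was 0.674 for the summed libraries and 0.484, 0.472, 0.640 and 0.539 in replicates 1 to 4. These values share libraries and hosts and are a description. Where the genes opposite the host's exons had no count, 7.35% of 272 members had one and density was 0.0582 ± 0.0155. Where they had more than 100 counts per kb, 65.6% of 372 members had one and density was 3.52 ± 0.597 (SD, n = 4). Member density also went with the host's own density, with rho of 0.581 over 2156 hosts. In 508 hosts with more than 1 whole member, the second longest had a count in 67.1% where the longest had one and in 9.33% where it had none.

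**Figure D3:**
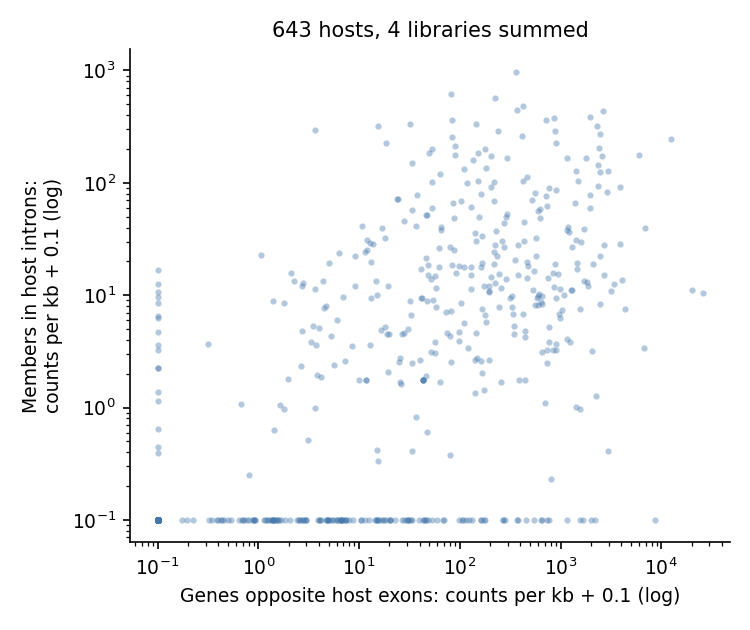
Density of members in the introns of 643 hosts against that of genes opposite the exons of the same hosts, both as counts per kb summed over 4 libraries, plus 0.1, on log axes. Each point is a host, and points along an axis edge are hosts with no count on that measure.

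Members inside short introns had more counts per kb. The density was 6.05 ± 0.661 in introns up to 3000 bases and 0.528 ± 0.0342 in introns over 100 kb (SD, n = 4). Processed pseudogenes went from 6.47 to 0.0794 over the same range, and long noncoding members from 5.45 to 0.333. Protein-coding members had 2.43, 5.08, 2.14, 1.87 and 0.848 from the shortest to the longest introns, the first over 6 genes. By number of the intron in the host, densities were 1.52, 1.24, 2.01, 1.56 and 2.07 for introns 1, 2, 3 to 5, 6 to 10 and 11 or later, while the share of members with a count was 32.1%, 36.6%, 39.2%, 40% and 46.9%. Host expression was not held constant in this series of intron lengths.

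**Figure D4:**
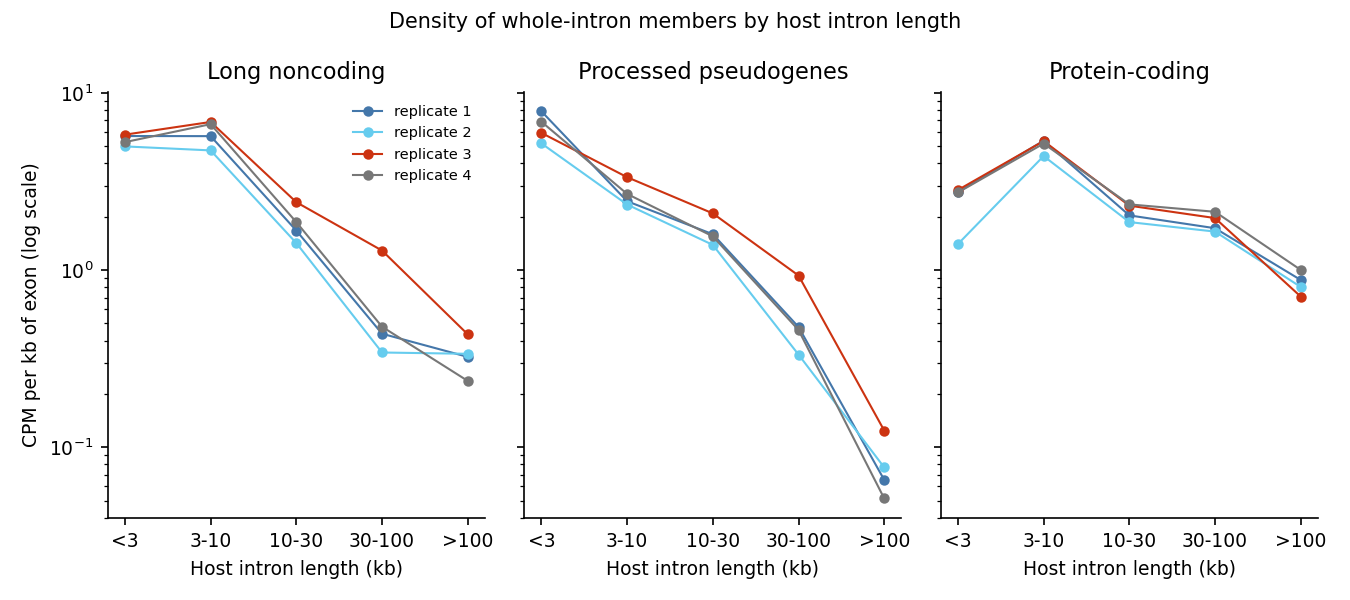
Density of members inside 1 intron, in CPM per kb of exon on a log axis, by length of the host intron in kb, for 3 gene types and each library. Density falls towards long introns in the noncoding types, and replicate 3 stands above the other libraries for long noncoding members in introns of 30 to 100 kb.

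Few members varied between replicates beyond the trend of all genes. With edgeR's quasi-likelihood fit, 22 of 4918 genes tested had a Benjamini-Hochberg adjusted p under 0.05, or 0.447%. Among 248 members tested the count was 1, or 0.403%, which is near that background. The member was Gm17137, a transcribed processed pseudogene in Xpo6, the gene of a nuclear export receptor. It had 21, 21, 128 and 26 counts, with replicate 3 apart from the others, and an adjusted p of 0.00409 (edgeR). Without replicate 3 its adjusted p was 0.999. The low-count filter asks for counts in every library and leaves out members that are near 0 in some.

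With a mean count of 10 or more in place of that filter, 44 of 6443 genes were called, or 0.683%, and 13 of 369 members, or 3.52%. All 13 were highest in replicate 3, and 11 lay inside 1 intron. Most of the 13 had a mean count under 10 in replicates 1, 2 and 4 and so passed this filter only through replicate 3. These were Gm45290, Gm10851, Gm27240, Gm38126, Angptl7, 4930412M03Rik and Gm11655. Their being highest there, and the share of members called, are therefore partly set by the filter. How many of the 44 genes were highest in replicate 3 was not counted. They included Gm37520 in Prkcq, a T cell kinase gene, with 6, 11, 74 and 14 counts, and Gm27240 in Ets1, a lymphocyte transcription factor gene, with 5, 7, 67 and 11. Gm45290 in Fto had 2, 7, 50 and 5 counts, Gm10851 in Pfkfb3 had 8, 0, 56 and 5, and Fam196b in Dock2 had 16, 9, 75 and 11. Replicate 3 is 1 library and these members were called for their variation, so its standing apart in them is a description. Of their hosts, Ets1 had 77, 69, 51 and 106 counts, Dock2 had 19, 35, 11 and 33, and Fto had 4, 4, 2 and 8. These hosts were each lowest in replicate 3, Fto on few counts. Prkcq had 85, 82, 110 and 134 counts and was lowest in replicate 2. Rabgap1l, host of Gm38126, had 4, 17, 13 and 13 and was lowest in replicate 1. Mtor, host of Angptl7, had 12, 10, 10 and 18, equal in replicates 2 and 3. Counts of the remaining hosts are not given here. Under the first filter, library totals in place of TMM left 0 of 248 members called (0.0407% of all genes), and limma also left 0 (0.0203%). With no filter beyond 1 count, 21 of 2012 members were called, or 1.04%, against 0.321% of 17431 genes. Without replicates 1, 2, 3 and 4 in turn, 1, 2, 0 and 1 members were called, against 0.31%, 0.395%, 0.296% and 0.226% of all genes tested.

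**Figure D5:**
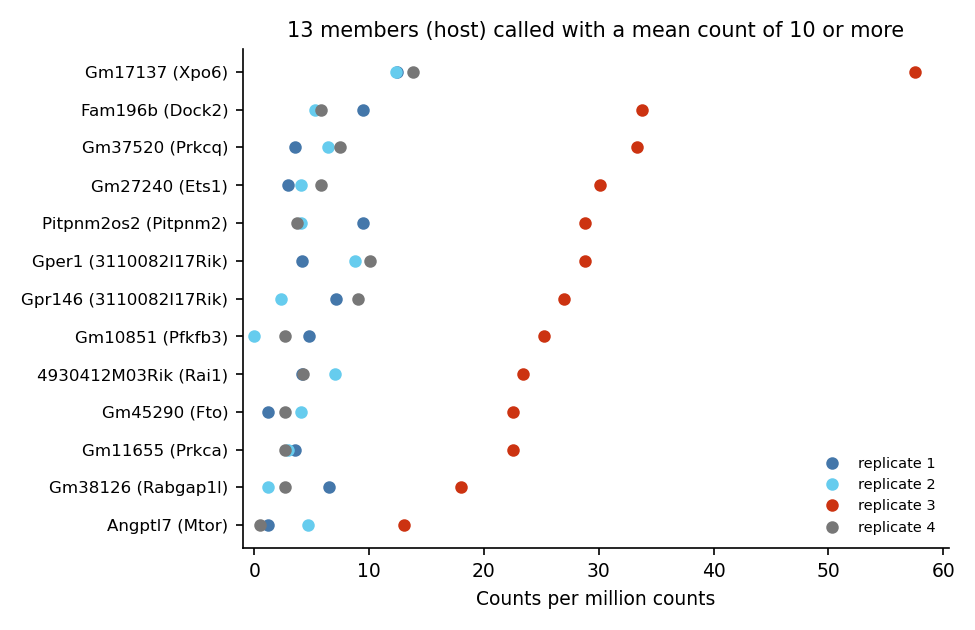
CPM of the 13 members called with a mean count of 10 or more, with the host in brackets; each point is a library. Replicate 3 is to the right of the other 3 libraries for every member.

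Replicate 3 was the highest library for 41.2% of 211 members inside 1 intron, when scaled by library totals and with a mean count of 10 or more. It was the highest for 15.1% of 6285 genes in all and for 10.5% of 1681 genes that overlap no other gene. With TMM scaling these shares were 54.0%, 29.5% and 16.7%. Among long noncoding members inside 1 intron it was 56.4% of 78 by totals and 74.4% by TMM, and among processed pseudogenes 26.8% of 41 and 39.0%. For members in introns over 100 kb it was 20% of 25 and 24.0%, and for genes with an opposite exon 16.5% of 3562 and 37.0%. The filter on mean count included replicate 3, so a gene near its limit could pass by being high there. Its part in the differences between these sets was not tested. The median of log2 replicate 3 over the others was -0.21 for all genes by totals and -0.04 by TMM, and for members inside 1 intron it was 0.14 and 0.32. The rRNA gene CT010467.1 held 9.40% of the counts of replicate 3 and 1.29%, 5.05% and 1.62% in replicates 1, 2 and 4, and its part in these shares was not tested.

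For miRNA genes the counts come from the whole hairpin entry, and the library is not one of small RNA. Of 252 miRNA members, 66 had a count and 100 matched a RefSeq entry. The mature sequences of the matched members with the most counts follow, with the seed (bases 2 to 8) in capitals, and no pair of them shares a seed.
mmu-miR-378b, from Mir378b in Msi2: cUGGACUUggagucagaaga
mmu-miR-466i-3p, from Mir466i in Cdk13: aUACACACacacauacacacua
mmu-miR-199a-5p, from Mir199a-1 in Dnm2: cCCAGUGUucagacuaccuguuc
mmu-miR-199a-3p, from Mir199a-1 in Dnm2: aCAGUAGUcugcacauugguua
mmu-miR-467f, from Mir467f in Fxr2: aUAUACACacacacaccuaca
Mir378b had 28, 7, 12 and 17 counts, Mir466i had 13, 5, 12 and 13, Mir199a-1 had 3, 12, 13 and 6, and Mir467f had 1, 3, 16 and 9. No order of the libraries was shared by the 4.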

How the data were processed

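Whole-number counts per gene for 4 libraries were deposited by the authors, made with featureCounts 1.4.6-p4 on mm10 and GENCODE M13 with strand option 1, per the file headers. The headers also name 16 hours, a time absent from the labels. Total RNA-seq is the labelled assay, but the protocol file linked there is titled for poly(A) RNA. The aligner was not given in the sources used here. Exon positions and lengths are those of the deposited tables. Symbols and types came from GENCODE M21 (99.7% of members matched) and miRNA sequences from RefSeq. Release M13 itself was not used here.

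Density was the summed CPM of a set over its summed exon kb. Strand classes were compared within libraries by exact two-sided sign-flip tests over 4 libraries, with Benjamini-Hochberg adjustment within families of 3, 9 and 3 pairs. Variation between replicates used edgeR 4.0.16 (intercept only, TMM, robust quasi-likelihood, adjusted p under 0.05), tested on simulated data for 4753 genes: it recovered 29.2%, 98.5% and 100% of genes changed 2-, 4- and 8-fold, with 0 false calls. The simulation gave every gene the same dispersion, changed each gene in a single library and used only genes past the first low-count filter. Its recovery and false calls are therefore not those of the real libraries or of the other filters. Size factors of DESeq2 1.42.0 and the test of limma 3.58.1 were alternatives. R 4.3.3 and Python 3.11.15 were used. Named genes were the 8 densest members of each main type with 40 or more counts and some in each library, the 8 hosts with the most member counts, members past the variation test, and the 3 hosts with the most member counts in each list. Gm18828, the miRNAs, the members called only with a mean count of 10 and the sequences shown were chosen after their values were seen. The members and lists were chosen with earlier results of these data known. Alternatives by exon length, intron length, gene type in host lists, M21 coordinates and the highest replicate were chosen after seeing the data. Some markers and members that these rules name are not reported here.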

Additional observations from a re-analysis of the deposited data

Results flagged for a closer look

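A gap rule for groups of 4 was applied to 136 values, and 9 had a library far from the other 3. Of the 9, 6 were high in replicate 3. Chance gives about 1 in 20 for independent values, but these share genes and libraries, so the flags cannot be set against that rate. Gm17137 was among the values because it had passed the test of variation. Density of long noncoding members in introns of 30 to 100 kb was 1.29 in replicate 3 and 0.437, 0.342 and 0.479 in replicates 1, 2 and 4. Density of the 6 protein-coding members in introns up to 3000 bases was 1.4 in replicate 2, below the others. Gm17137 had a density of 13.2 in replicate 3, and Gm6963 of 15.4, the latter on 13 counts. Gm16184, a pseudogene in Pvr, had 54.7 in replicate 4, and H2-T23, a class I-like gene, 4.23 in replicate 4 on 23 counts. The log2 ratio of long noncoding over protein-coding members was 0.74 in replicate 3. The log2 ratio to neuronal hosts was 10.23 for T cell hosts and 8.62 for broadly expressed hosts in replicate 3. Both rest on the same 4 counts in neuronal hosts. The part of replicate 3's rRNA share in these values was not tested.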

How the results depend on the processing

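No paired analysis was possible because the libraries form 1 group and replicate numbers match no samples of another; the density ratios were taken within each library. No p in the density comparisons could pass 0.05. Long noncoding over pseudogene members turned to -0.031 (log2) as mean log2(TPM + 1) and -0.062 with a mean count of 1 or more. Protein-coding over pseudogene members turned to 0.14 (TPM), 0.13 (inside 1 intron) and 0.58 (500 to 3000 bases), and long noncoding over protein-coding to -0.17, -0.036 and -0.25. Protein-coding members over genes that overlap no other gene turned to -0.059 without the 10 genes with most counts. The other 11 density ratios kept their direction under every alternative run, but not their size. With a mean count of 1 or more, which keeps counted genes, T cell over neuronal hosts was 4.76 and broadly expressed over neuronal 3.10, and long noncoding and pseudogene members over same-strand introns were 1.33 and 1.71. As mean log2(TPM + 1), these 4 were 2.31, 1.46, 0.58 and 0.61. Without replicate 3, T cell over neuronal hosts moved from 8.16 to 7.47 and broadly expressed over neuronal from 6.27 to 5.49. Members inside 1 intron held 0.593% of counts. Called members were 0 of 248 with library totals and 0 of 248 with limma. They were 21 of 2012 with no filter beyond 1 count and 13 of 369 with a mean count of 10. Leaving out a replicate gave 0 to 2, with 0 without replicate 3. At unadjusted p under 0.05 there were 15 of 248 members in the edgeR fit as reported, 6 with library totals and 18 with limma. The share of all genes at that p was not counted. Under TMM replicate 3 was highest for 54.0% of members inside 1 intron. The causes were not tested.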
